A study of Mus musculus with 16 samples.

Results

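Hepatic gene expression was compared between mice fed chow throughout and mice that alternated between a high-fat and a ketogenic diet. The comparison used 8 of the 16 liver RNA-seq libraries of the study, 4 from the chow group and 4 from the ketogenic-alternating group. It covered all genes with at least 1 TPM (transcripts per 1000000) in at least 4 of these 8 libraries, which was 11091 of the 22612 genes measured. All animals were male C57BL/6 mice, bought at 7 weeks of age and given 1 week to settle before the diets began. Chow mice received a diet with 11% of its energy from fat for 16 weeks. Ketogenic-alternating mice switched every 2 weeks between a high-fat diet with 58% of energy from fat and a ketogenic diet with 90.5% of energy from fat, also over 16 weeks. Another group, used here only where a level is set against it, received the high-fat diet throughout. Each group held 6 mice and is represented here by 4 libraries, and liver was taken after a night without food. The labels do not say which of the alternating diets was given last, at what hour tissue was taken, or whether each library is a separate animal. The p-values therefore measure the spread between these samples.

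A ketogenic diet supplies so little carbohydrate that the liver burns fatty acids and exports ketone bodies. In hepatocytes, the membrane-bound factor SREBP2 is released when sterols in the endoplasmic reticulum run low and turns on the genes of cholesterol synthesis and uptake. Its relative SREBP1c drives fatty acid synthesis, PPAR alpha drives fatty acid oxidation, and the sensors CAR and PXR maintain the enzymes that clear foreign compounds.

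The 8 libraries differed in how much of the RNA a few genes took up. The 20 most abundant genes held 28.97% to 38.82% of the TPM in chow libraries and 27.08% to 29.47% in ketogenic-alternating libraries, with chow replicates 2 and 3 at 34.16% and 38.82%. Mitochondrially encoded genes held 10.16% to 18.37% in chow and 8.61% to 10.24% in ketogenic-alternating libraries. Because TPM values sum to a fixed total, this share moves with the group and with the level of every other gene. The 2 refits that bear on it are cited below: one left out chow replicates 2 and 3, and the other took the share of the 20 highest genes as a covariate. Only chow replicate 1, at 28.97%, had a share within the ketogenic-alternating range. The covariate fit therefore cannot fully tell the share apart from the diet. With the 20 most abundant genes left out and the rest rescaled, 247 genes were called, 161 higher and 86 lower, and with the mitochondrially encoded genes left out and the rest rescaled 244 were called. Correlations of log2(TPM + 1) between libraries ran from 0.960 to 0.985 within chow and from 0.975 to 0.991 within the ketogenic-alternating group. The summed level of 10 hepatocyte markers ran from 97000 to 108000 TPM in chow and from 99300 to 107000 TPM in the ketogenic-alternating group, and of these 10, all tested, 2 passed as higher and 2 as lower.

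Of 11091 genes tested, 555 passed an adjusted p below 0.05 (limma, Benjamini-Hochberg), which is 5.0%. The passed genes were 407 higher (3.67%) and 148 lower (1.33%) in ketogenic-alternating liver. A change of at least 2-fold on the log2(TPM + 1) scale was also required of a called gene, and 257 genes (2.32%) were called, 194 higher (1.75%) and 63 lower (0.568%). Values of the groups did not overlap for 248 of the 257, against 13.3% of all genes tested. The calls were made on these same values, so this separation adds no support to them. The median log2 fold change of all genes was 0.15. After scaling to the median ratio of all genes that median was 0.002, and 228 genes were called, 133 higher and 95 lower, so the share of calls that were higher went from 75.5% to 58.3%. All directions below are relative to the fixed TPM total. Removing single libraries left 165 to 479 called genes: 479 without chow replicate 1, 168 without ketogenic-alternating replicate 2 and 165 without ketogenic-alternating replicate 3. The number passed was 1630, 319 and 302 when chow replicate 1, 2 or 4 was left out, and 367, 210 and 226 without ketogenic-alternating replicates 1, 2 and 3. Without chow replicates 2 and 3 together 148 genes were called, and 132 were called with the share of the 20 highest genes as a covariate.

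**Figure D1:**
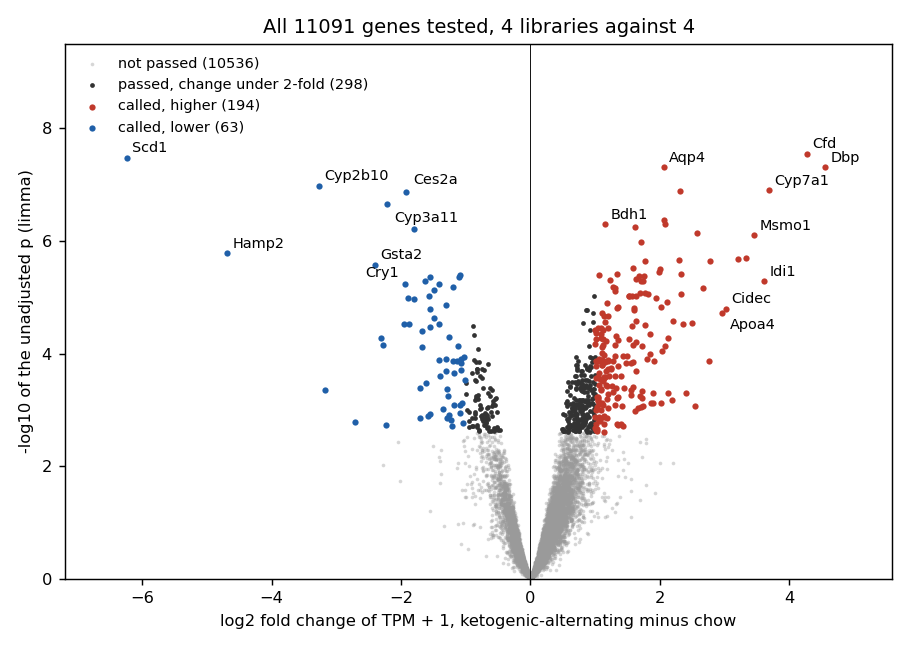
Each point is 1 of the 11091 genes tested; the x axis is the log2 fold change of TPM + 1 (ketogenic-alternating minus chow, 4 libraries each) and the y axis is minus log10 of the unadjusted limma p. Red marks the 194 genes called higher, blue the 63 called lower and black the genes that passed with a smaller change; Scd1 stands farthest to the left at -6.24 and Dbp farthest to the right at 4.56.

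The gene lists used below were described by how many of their members passed in each direction. Over all genes tested, 3.67% passed as higher and 1.33% as lower. A list with few members passed lies near these shares and is given as a description only. Of 26 genes of cholesterol synthesis and SREBP2 targets tested, 23 passed and all 23 were higher, a larger number than in any other of the 40 lists. The circadian list had 11 higher and 3 lower of 23, the interferon-stimulated list 11 higher of 31, and the fatty acid oxidation list 9 higher of 38. Glutathione transferases were the list with most members lower, 8 of 21. No member passed among 32 nuclear genes of oxidative phosphorylation, 13 mitochondrially encoded genes, 40 cytosolic ribosomal proteins or 18 cell cycle genes in limma's test, at medians of 0.005, -0.56, -0.26 and -0.03. At an unadjusted p below 0.05 these lists had 4 higher and 3 lower, 9 lower, 1 higher and 10 lower, and 3 higher and 2 lower. Without chow replicate 1 the numbers that passed in those lists were 3 higher and 3 lower, 8 lower, 1 higher and 10 lower, and 1 higher and 2 lower.

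**Figure D2:**
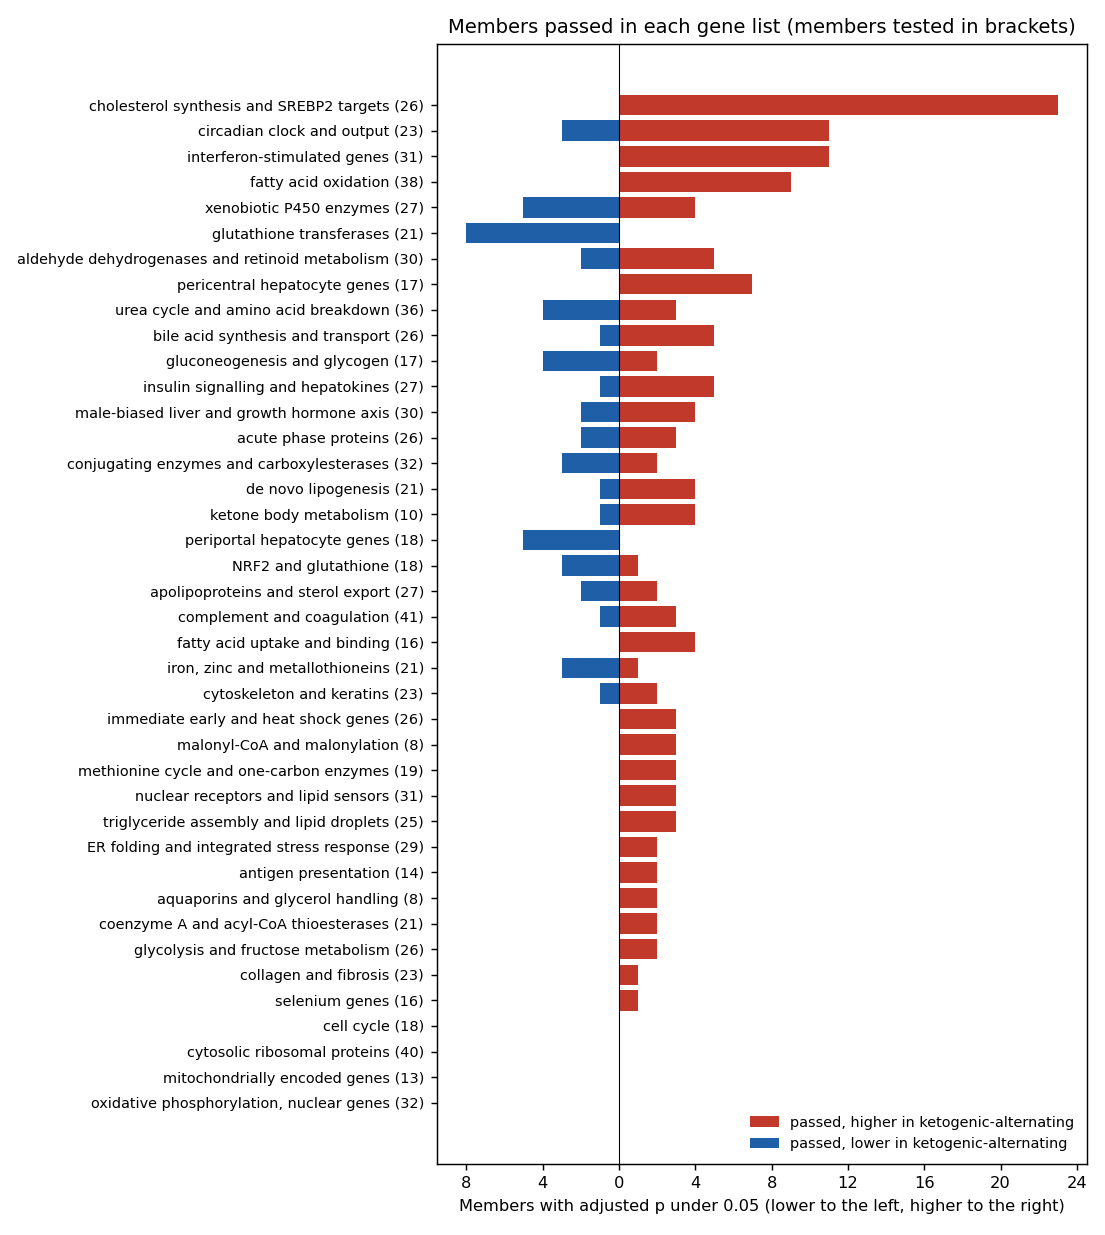
Bars give the number of members of each gene list with an adjusted p under 0.05, higher in ketogenic-alternating liver to the right (red) and lower to the left (blue), with the number of members tested in brackets. The cholesterol list stands out with 23 of 26 members higher and none lower, and the glutathione transferases with 8 of 21 lower.

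Cholesterol synthesis genes were higher at nearly every step of the pathway. Their promoters are shown first, since these genes moved together. RefSeq promoters (GRCm38.p6) were found for 18 of the 26 genes. The 250 bases before the start of 6 of them are given 5′ to 3′ on the strand of the gene, with matches to the sterol regulatory element core TCACNCCAC, the E-box CACGTG and the CCAAT box in capitals on either strand, so that ATTGG is a CCAAT box on the other strand. These 6 were chosen because Idi1, Msmo1, Mvd, Mvk and Cyp51 are the members with promoters among the largest rises of all genes, and Hmgcs1 because it alone holds the sterol core. Idi1 is at chr13:8885356-8885605 on the plus strand, Msmo1 at chr8:64733579-64733828 on the minus strand, Mvd at chr8:122443423-122443672 on the minus strand, Mvk at chr5:114444019-114444268 on the plus strand, Cyp51 at chr5:4104698-4104947 on the minus strand and Hmgcs1 at chr13:119690101-119690350 on the plus strand, for the bases shown.
Idi1: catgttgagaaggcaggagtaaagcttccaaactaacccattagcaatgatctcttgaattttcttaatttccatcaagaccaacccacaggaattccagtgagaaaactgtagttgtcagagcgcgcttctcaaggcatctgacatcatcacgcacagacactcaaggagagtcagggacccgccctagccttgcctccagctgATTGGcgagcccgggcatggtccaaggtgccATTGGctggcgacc
Msmo1: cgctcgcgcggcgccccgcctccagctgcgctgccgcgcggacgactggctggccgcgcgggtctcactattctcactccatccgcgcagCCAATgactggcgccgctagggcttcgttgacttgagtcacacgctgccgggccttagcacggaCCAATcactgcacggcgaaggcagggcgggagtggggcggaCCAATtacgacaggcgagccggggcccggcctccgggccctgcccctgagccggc
Mvd: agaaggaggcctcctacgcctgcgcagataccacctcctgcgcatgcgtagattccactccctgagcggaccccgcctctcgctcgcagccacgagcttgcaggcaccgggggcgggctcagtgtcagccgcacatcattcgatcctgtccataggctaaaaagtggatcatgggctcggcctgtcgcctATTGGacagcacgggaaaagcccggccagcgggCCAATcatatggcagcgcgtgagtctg
Mvk: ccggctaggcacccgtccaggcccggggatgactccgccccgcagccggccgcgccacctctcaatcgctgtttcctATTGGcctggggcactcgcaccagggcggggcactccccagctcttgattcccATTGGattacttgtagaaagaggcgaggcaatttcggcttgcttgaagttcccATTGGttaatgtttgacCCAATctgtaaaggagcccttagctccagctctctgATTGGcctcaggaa
Cyp51: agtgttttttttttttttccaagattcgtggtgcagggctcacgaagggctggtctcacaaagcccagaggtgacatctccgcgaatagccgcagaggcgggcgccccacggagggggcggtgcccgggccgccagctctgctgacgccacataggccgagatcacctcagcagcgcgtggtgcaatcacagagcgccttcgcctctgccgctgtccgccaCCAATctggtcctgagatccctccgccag
Hmgcs1: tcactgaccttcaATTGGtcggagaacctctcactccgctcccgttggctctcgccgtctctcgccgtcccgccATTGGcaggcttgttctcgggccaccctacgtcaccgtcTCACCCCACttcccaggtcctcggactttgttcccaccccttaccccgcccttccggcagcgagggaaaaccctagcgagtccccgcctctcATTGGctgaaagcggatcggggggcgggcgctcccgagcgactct

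A CCAAT box, the site of the factor NF-Y, which works with SREBP2 at sterol-regulated promoters, was present in 17 of the 18 genes (94.4%), against 37.5% of the 27025 genes with a promoter of this length. Acat2, which passed as higher, was the gene without one. Ebp, Ggps1 and Tm7sf2, the members that did not pass, all held the box. Its presence therefore did not separate members that passed from those that did not. The Mvk promoter holds 5 CCAAT matches and those of Msmo1 and Hmgcs1 hold 3 each. The sterol core matched in 1 of the 18 (5.56%), Hmgcs1, against 1.22% of all genes. The E-box matched in 4 of the 18 (22.2%), which were Dhcr7, Hsd17b7, Insig1 and Sc5d, against 6.86% of all. The nuclear receptor motif AGGTCA was found in 3 of 18 (16.7%) against 15.8%, its direct repeat with 1 base between in 0 against 0.0407%, and the antioxidant response element core TGACNNNGC in 3 of 18 (16.7%) against 11.5%. These are letter matches in a short window and say nothing on binding.

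Idi1, isopentenyl diphosphate isomerase, which interconverts the isoprene building blocks, had the largest change in the pathway. Its TPM in replicates 1 to 4 was 19.1, 22, 4.98 and 6.43 in chow and 82, 209, 224 and 118 in ketogenic-alternating liver, a log2 fold change of 3.62 (SE 0.45, limma adjusted p = 0.00139). Every ketogenic-alternating library lay above every chow library, although the chow libraries themselves were spread widely. Msmo1, a sterol methyl oxidase of the late pathway, had 39.2, 49, 18 and 15.3 TPM in chow and 202, 417, 395 and 268 TPM in ketogenic-alternating liver (log2 fold change 3.46, SE 0.36, limma adjusted p = 0.000547). Sqle, squalene epoxidase, the first oxygen-requiring step, had 6.99, 12.2, 2.89 and 3.36 TPM in chow against 38.2, 72.6, 95.9 and 65.9 TPM (3.34, SE 0.38, limma adjusted p = 0.00108). For each of these genes the groups did not overlap, and chow replicates 3 and 4 were lower than chow replicates 1 and 2.

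Mvk and Mvd, kinase and decarboxylase of the mevalonate stretch, rose by 2.78 (SE 0.32) and 3.21 (SE 0.37) on the log2 scale, both at limma adjusted p = 0.00108. Cyp51, the lanosterol demethylase, rose by 2.66 (SE 0.34, limma adjusted p = 0.00162). Hmgcs1, which forms HMG-CoA, had 92.4, 94, 52.6 and 66.8 TPM in chow and 215, 568, 553 and 303 TPM in ketogenic-alternating liver, a log2 fold change of 2.33 (limma adjusted p = 0.00181). Replicate 1 was the lowest of the ketogenic-alternating libraries for Idi1, Msmo1, Sqle, Mvd, Mvk, Cyp51 and Hmgcs1. Srebf2 itself, which encodes SREBP2, was higher by 1.05 (SE 0.19, limma adjusted p = 0.00965), with 17, 14.4, 9.51 and 15.2 TPM in chow and 27, 29.5, 35.7 and 26.4 TPM.

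Insig1, which holds SREBP back in the endoplasmic reticulum, was higher by 1.36 (limma adjusted p = 0.0105). The 3 members that did not pass were Ebp, Ggps1 and Tm7sf2, with log2 fold changes of 0.12, 0.09 and 0.04. Values of Hmgcs1, Insig1, Ebp, Ggps1 and Tm7sf2 are given because the whole pathway is described, and were picked after they were seen. The list's median log2 fold change was 1.88 against 0.15 for all genes, and 1.71 after median-ratio scaling, where 22 members passed. Removing 1 library left 17 to 23 members passed; 14 passed without chow replicates 2 and 3, and 8 with the share of the 20 highest genes as a covariate, where Srebf2 did not pass (limma adjusted p = 0.0919).

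**Figure D3:**
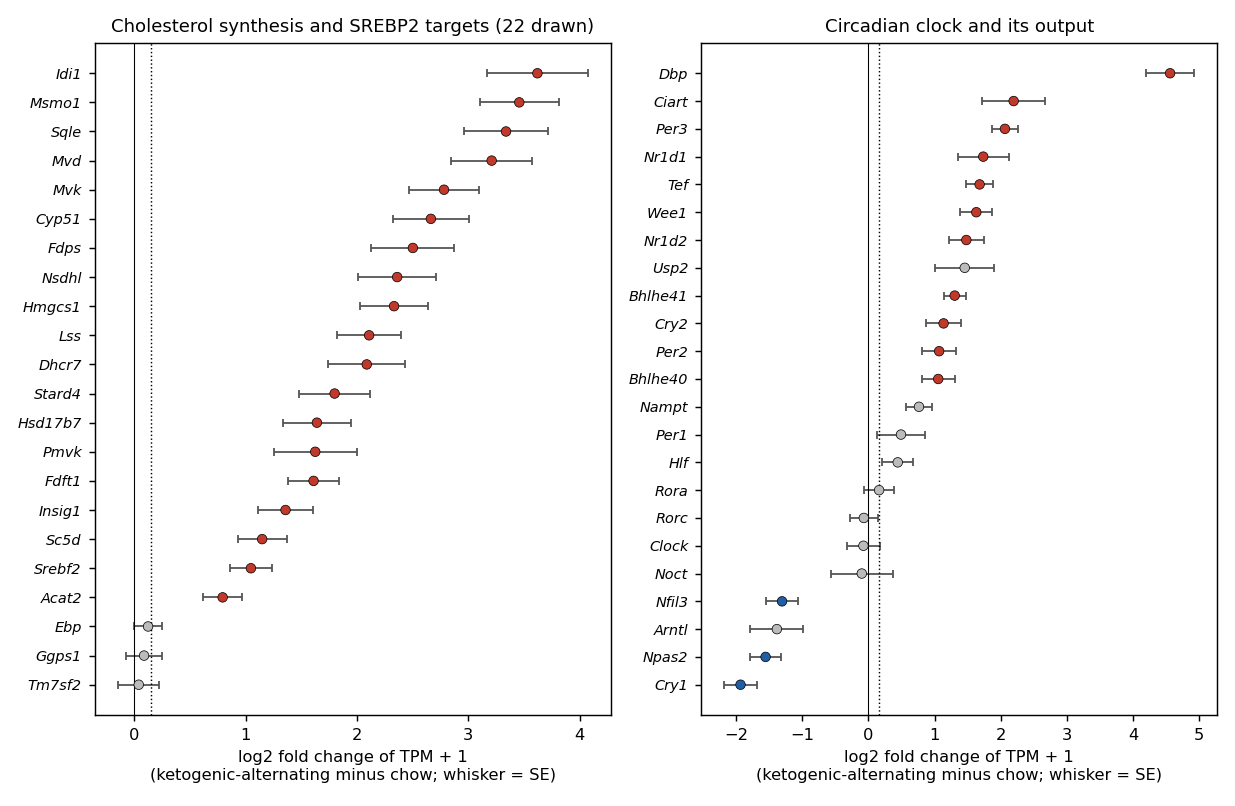
Points give the log2 fold change of TPM + 1 (ketogenic-alternating minus chow) of 22 members of the cholesterol list (left) and the 23 of the circadian list (right), with whiskers for the standard error, a solid line at 0 and a dotted line at the median of all genes (0.15). Red and blue members passed as higher and lower and grey members did not pass; 19 of the 22 cholesterol genes drawn are red, while the clock list has 11 red and 3 blue members.

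Scd1 fell more than any other gene tested. It encodes the stearoyl-CoA desaturase that makes monounsaturated fatty acids, and lies at chr19:44394455-44407879 (GRCm38, GENCODE vM21). Its TPM was 2870, 2370, 1120 and 1210 in chow and 66.7, 11, 19.7 and 15.8 in ketogenic-alternating liver, a log2 fold change of -6.24 (SE 0.48, limma adjusted p = 0.000135). The highest ketogenic-alternating library was far below the lowest chow library. Elovl3, an elongase of saturated and monounsaturated fatty acids, fell as well, from 643, 351, 153 and 503 TPM to 57, 102, 87.7 and 59.8 TPM (log2 fold change -2.27, SE 0.38, limma adjusted p = 0.0065). In contrast to Scd1, Fads2, the delta-6 desaturase of polyunsaturated fatty acids, rose from 193, 132, 48.2 and 107 TPM to 603, 501, 448 and 366 TPM (2.13, SE 0.34, limma adjusted p = 0.00534).

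Of 21 lipogenesis genes tested, 4 passed as higher and Scd1 alone as lower. The others higher were Fads1, the delta-5 desaturase (0.97, limma adjusted p = 0.0175), Mid1ip1, an activator of acetyl-CoA carboxylase (0.86, limma adjusted p = 0.0166), and Srebf1, which encodes SREBP1 (0.78, limma adjusted p = 0.0282). Fasn, fatty acid synthase, did not pass: it had 19.2, 23, 12.8 and 14.2 TPM in chow and 18.7, 50.3, 46.5 and 45.2 TPM in ketogenic-alternating liver (1.11, SE 0.30, limma adjusted p = 0.0553). Fasn was high in 3 ketogenic-alternating libraries and within the chow range in replicate 1. Of 8 genes of malonyl-CoA and malonylation, 3 were higher, namely Acsf3, the mitochondrial malonyl-CoA synthetase (0.85, limma adjusted p = 0.0148), Sirt5, the desuccinylase and demalonylase (0.68, limma adjusted p = 0.0283), and Cpt1a, the malonyl-CoA-sensitive gate of fatty acid entry into mitochondria. Acaca and Acacb, the acetyl-CoA carboxylases, and Mlycd, malonyl-CoA decarboxylase, did not pass, at 0.54 (SE 0.25, limma adjusted p = 0.221), -0.45 (SE 0.34, limma adjusted p = 0.435) and 0.08 (SE 0.13, limma adjusted p = 0.728).

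Several of these genes did not pass in every fit without 1 library. Such fits hold fewer libraries, and in most of them fewer of all genes passed than the 555 of the full comparison. A loss in these fits need not point at the library left out. Acsf3 did not pass without ketogenic-alternating replicate 2 (limma adjusted p = 0.0641). Fads1 was lost without chow replicate 4 or ketogenic-alternating replicate 1, 2 or 3, Mid1ip1 without chow replicate 4 or ketogenic-alternating replicate 2 or 3, Srebf1 without any 1 of 6 libraries (all but chow replicate 1 and ketogenic-alternating replicate 1) and Sirt5 without chow replicate 4 or any ketogenic-alternating replicate, at adjusted p values of at most 0.101. The lipogenesis count of 4 was 1 without chow replicate 4 or ketogenic-alternating replicate 2 or 3, and the malonyl-CoA count of 3 was 6 without chow replicate 1, 0 without ketogenic-alternating replicate 2 and 1 without ketogenic-alternating replicate 3. Mid1ip1 and Srebf1 did not pass without chow replicates 2 and 3, and these 2, Fads1, Acsf3 and Sirt5 did not pass with the share of the 20 highest genes as a covariate (limma adjusted p from 0.0843 to 0.217 over these refits). After median-ratio scaling Mid1ip1, Srebf1 and Sirt5 did not pass (limma adjusted p from 0.0557 to 0.0684). The lipogenesis count higher was 2 without chow replicates 2 and 3 and 1 with the covariate, and the malonyl-CoA count 2 and 0. Scd1, Elovl3 and Fads2 passed in all 8 fits without 1 library and in both refits, but their size moved: with the covariate the log2 fold changes were -6.96, -3.29 and 1.15, and Elovl3 was at -2.92 without chow replicates 2 and 3.

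Some genes of lipid droplets and fatty acid uptake rose, 3 of 25 and 4 of 16 tested. Cidec, the droplet protein that lets lipid droplets grow by passing lipid between them, lies at chr6:113424634-113435760. It had 4.99, 4.03, 0.857 and 5.45 TPM in chow and 70.9, 35.9, 21.3 and 26.2 TPM in ketogenic-alternating liver (log2 fold change 3.03, SE 0.42, limma adjusted p = 0.00253), with no overlap. Pparg, the nuclear receptor known for driving fat storage genes, was 5.07, 5.31, 4.14 and 6.21 TPM in chow and 15, 12.2, 11.9 and 11 TPM (1.13, SE 0.16, limma adjusted p = 0.00308). Cd36, a fatty acid transporter, went from 33.7, 16.4, 16.1 and 22.8 TPM to 86.7, 80.4, 91.7 and 55.6 TPM (1.81, SE 0.24, limma adjusted p = 0.00181). Every ketogenic-alternating library was above every chow library for Pparg and Cd36. Fabp2, a fatty acid binding protein best known from intestine, rose by 1.72 (SE 0.18, limma adjusted p = 0.000671), from 64.2 to 103 TPM in chow to 205 to 320 TPM. Fitm1, a droplet-forming protein of the endoplasmic reticulum, rose by 1.28 (SE 0.16, limma adjusted p = 0.0016), and Slc27a1, a fatty acid transport protein, by 1.11 (SE 0.20, limma adjusted p = 0.0103).

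Cfd, which encodes complement factor D or adipsin, was listed at 0 in chow replicates 1 and 2 and at 0.436 and 0.447 TPM in chow replicates 3 and 4. In ketogenic-alternating liver it was 12.8, 16.1, 42 and 27.5 TPM, a log2 fold change of 4.27 on the log2(TPM + 1) scale (SE 0.32, limma adjusted p = 0.000135). Cfd and Cidec are both also markers of adipocytes and belong to the 7 markers summed next. The sum therefore repeats their rises and is no separate test of adipocyte content. The summed level of the 7 adipocyte markers was 11.1 to 17.6 TPM in chow and 61.7 to 110 TPM in ketogenic-alternating liver, without overlap (exact permutation p = 0.0286, two-sided, the smallest possible with 4 against 4, and 0.371 after adjustment over 13 marker lists). Of the defining markers, Lep and Retn were listed at 0 in all 8 libraries, Adipoq averaged 0.0115 TPM and Plin1 0.00388 TPM over them, and Fabp4 changed by 0.37 (limma adjusted p = 0.507). In bulk tissue, more cells of a type and more RNA per cell cannot be told apart.

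Of 25 genes of triglyceride assembly and droplets, 3 passed, all higher: Cidec, Fitm1 and Lipe, the hormone-sensitive lipase (0.91, limma adjusted p = 0.0253). Of 16 genes of fatty acid uptake and binding, 4 were higher, among them Acsl3, an acyl-CoA synthetase of droplets (0.98, limma adjusted p = 0.0481). The counts higher were 8 and 7 without chow replicate 1, and 2 and 2 in each of the refits for the 20 highest genes. In the covariate refit 1 gene of triglyceride assembly and droplets passed as lower. Cidec passed with the covariate at a smaller log2 fold change of 1.97. Lipe was lost without chow replicate 2 or 4 or ketogenic-alternating replicate 1, 2 or 3, and Acsl3 without chow replicate 3 or 4 or ketogenic-alternating replicate 1, 2 or 3 (limma adjusted p up to 0.155). Slc27a1, Lipe and Acsl3 did not pass without chow replicates 2 and 3 or with the share of the 20 highest genes as a covariate (limma adjusted p from 0.0879 to 0.289), and Acsl3 did not pass after median-ratio scaling (0.0638).

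Fatty acid oxidation genes passed only as higher, 9 of 38, with a median log2 fold change of 0.42 over the list. Cpt1a rose from 183, 133, 68.9 and 140 TPM to 350, 278, 281 and 235 TPM (1.19, SE 0.26, limma adjusted p = 0.0228). Acadm, the medium-chain acyl-CoA dehydrogenase, went from 353, 308, 266 and 386 TPM to 490, 601, 540 and 623 TPM (0.79, SE 0.15, limma adjusted p = 0.0117). Hadh, the 3-hydroxyacyl-CoA dehydrogenase, changed by 0.80 (SE 0.15, limma adjusted p = 0.0117) and Acaa1a, the peroxisomal thiolase, by 0.72 (SE 0.13, limma adjusted p = 0.011). Ucp2, an inner mitochondrial membrane carrier, rose by 1.16 (SE 0.19, limma adjusted p = 0.00571) and Vnn1, the pantetheinase that yields the coenzyme A precursor pantothenate, by 1.12 (SE 0.20, limma adjusted p = 0.00965).

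The size of this list depended on the libraries used. The count was 15 without chow replicate 1, 5 without chow replicate 2 and 2 without ketogenic-alternating replicate 2. Only 1 member passed as higher without chow replicates 2 and 3. With the share of the 20 highest genes as a covariate none passed as higher, and 1 passed as lower. Cpt1a was lost without chow replicate 2 or ketogenic-alternating replicate 1, 2 or 3, and Acadm and Hadh without ketogenic-alternating replicate 2 (limma adjusted p up to 0.0684). Cpt1a, Acaa1a, Acadm, Ucp2 and Vnn1 did not pass without chow replicates 2 and 3, nor did these and Hadh with the covariate (limma adjusted p from 0.0524 to 0.144), and Acaa1a was at 0.0566 after median-ratio scaling.

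Among 10 genes of ketone body metabolism, 4 were higher and 1 lower. Bdh1, which converts acetoacetate to beta-hydroxybutyrate, had 151, 145, 130 and 149 TPM in chow and 314, 337, 305 and 337 TPM in ketogenic-alternating liver (1.16, SE 0.12, limma adjusted p = 0.000462). The spread within each group was small beside the distance between the groups. Acat1, the mitochondrial acetoacetyl-CoA thiolase, rose by 1.12 (SE 0.17, limma adjusted p = 0.00429) and Aacs, the cytosolic acetoacetyl-CoA synthetase that returns acetoacetate to lipid synthesis, by 1.94 (SE 0.26, limma adjusted p = 0.00185). Bdh2, a cytosolic dehydrogenase, fell from 26.5, 21.3, 29.8 and 22.8 TPM to 8.97, 7.26, 12.5 and 9.85 TPM (-1.31, SE 0.18, limma adjusted p = 0.00231). Bdh1, Acat1, Aacs and Bdh2 passed in all 8 fits without 1 library and in both refits that bear on the 20 highest genes.

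Of 26 genes of bile acid synthesis and transport, 5 were higher and 1 lower, with a list median of 0.31. Cyp7a1, the rate-limiting cholesterol 7 alpha-hydroxylase, had 4.94, 3.98, 2.29 and 4.71 TPM in chow and 108, 68.2, 61.2 and 31.9 TPM in ketogenic-alternating liver (log2 fold change 3.69, SE 0.32, limma adjusted p = 0.000184). The groups were well apart, while the ketogenic-alternating libraries differed among themselves, with replicate 1 the highest and replicate 4 the lowest. Cyp8b1, the 12 alpha-hydroxylase that leads to cholic acid, rose from 262, 172, 231 and 265 TPM to 545, 704, 557 and 497 TPM (1.31, SE 0.17, limma adjusted p = 0.00162). Cyp2c70, which makes the muricholic acids of mice, fell from 240, 204, 123 and 162 TPM to 67.9, 47.3, 79.7 and 58.4 TPM (-1.49, SE 0.22, limma adjusted p = 0.00328). Slc22a7, the organic anion transporter 2, rose by 2.29 (SE 0.26, limma adjusted p = 0.00108). The count higher was 10 without chow replicate 1 and 3 without chow replicate 2 or ketogenic-alternating replicate 2 or 3, and the count lower was 2 without chow replicate 1 or 4 or ketogenic-alternating replicate 4. Cyp7a1, Cyp8b1, Cyp2c70 and Slc22a7 passed in all 8 fits without 1 library and in both refits, where the count higher was 3; with the covariate Cyp7a1 was at 3.07.

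Of 27 apolipoproteins and sterol export genes, 2 were higher and 2 lower, beside 3.67% and 1.33% of all genes. Apoa4, an apolipoprotein of chylomicrons and HDL, had 221, 398, 290 and 568 TPM in chow and 7050, 2450, 1500 and 2110 TPM in ketogenic-alternating liver (2.97, SE 0.42, limma adjusted p = 0.00273). Replicate 1 was the highest and the groups did not overlap; with the share of the 20 highest genes as a covariate the adjusted p was 0.0608. Apoa1, the main protein of HDL, changed by 0.75 (limma adjusted p = 0.0267), and Angptl8, an inhibitor of lipoprotein lipase, by -1.29 (limma adjusted p = 0.0176). Apoa1 was lost without any 1 of 6 libraries (all but chow replicates 1 and 2) and Angptl8 without chow replicate 4 or ketogenic-alternating replicate 1, 2 or 3. Neither passed without chow replicates 2 and 3 or with the covariate (limma adjusted p from 0.0644 to 0.168), and Apoa1 did not pass after median-ratio scaling (0.193). Without chow replicate 1 the counts were 6 higher and 7 lower. The count higher was 1 without any 1 of the other libraries except chow replicate 2, and the count lower was 0 without chow replicate 4 or ketogenic-alternating replicate 1, 2 or 3 and 1 without chow replicate 2 or ketogenic-alternating replicate 4. Without chow replicates 2 and 3 the counts were 1 higher and 0 lower, and with the covariate 0 and 0.

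Genes of glucose production moved in both directions. Pck1, phosphoenolpyruvate carboxykinase, fell from 2110, 2550, 2100 and 2470 TPM to 1230, 1140, 1540 and 1430 TPM (-0.79, SE 0.14, limma adjusted p = 0.00967). Pcx, pyruvate carboxylase, which feeds both glucose production and the citrate cycle, rose from 215, 148, 114 and 173 TPM to 321, 396, 356 and 311 TPM (1.12, SE 0.18, limma adjusted p = 0.0065). Slc2a2, the hepatic glucose transporter GLUT2, rose from 61.8 to 68.3 TPM in chow to 102 to 128 TPM (0.81, SE 0.12, limma adjusted p = 0.00369). Of 17 genes of gluconeogenesis and glycogen, 2 were higher and 4 lower. Amino acid genes also split: Sds, serine dehydratase, fell by 1.26 on the log2 scale (SE 0.20, limma adjusted p = 0.00524), while Oat, ornithine aminotransferase, rose by 1.20 (SE 0.22, limma adjusted p = 0.0113). Bhmt, which remethylates homocysteine with betaine, rose from 1340, 1640, 888 and 898 TPM to 3670, 4460, 3230 and 2270 TPM (1.52, SE 0.24, limma adjusted p = 0.00543). Of 36 genes of urea cycle and amino acid breakdown 3 were higher and 4 lower, and of 19 one-carbon genes 3 were higher.

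Pck1, Pcx, Slc2a2, Sds, Oat and Bhmt passed in all 8 fits without 1 library. Pck1 and Oat did not pass without chow replicates 2 and 3, and Pck1, Pcx, Oat and Bhmt did not pass with the share of the 20 highest genes as a covariate (limma adjusted p from 0.0509 to 0.149). The glucose production counts were 5 higher without chow replicate 1, and 2 lower without chow replicate 2 or 4 or any ketogenic-alternating replicate. The count of 2 higher there was 1 without chow replicate 2 or ketogenic-alternating replicate 2 or 3. Amino acid breakdown had 5 higher without chow replicate 1 and 1 higher without chow replicate 2 or 4 or ketogenic-alternating replicate 2 or 3. Its count lower was 1 without chow replicate 2 or 4 or ketogenic-alternating replicate 3 and 2 without ketogenic-alternating replicate 2 or 4, and 7 after median-ratio scaling. In the refits without chow replicates 2 and 3 and with the covariate, its counts were 0 higher in both and 2 and 3 lower, and those of glucose production 1 and 0 higher. The one-carbon list had 5 higher without chow replicate 1 and 1 higher without chow replicate 4 or ketogenic-alternating replicate 1, 2 or 3.

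Hepatocytes near the central vein and near the portal vein carry out different tasks. Among the genes listed for these zones, the members that passed lay in opposite directions. Zonal genes outside these lists were not counted. Of 17 pericentral genes 7 were higher and none lower, and of 18 periportal genes 5 were lower and none higher, at medians of 0.68 and -0.44 (0.53 and -0.61 after median-ratio scaling). Among pericentral genes, Cyp2e1, the ethanol-metabolising P450, had 4830, 3910, 4090 and 5080 TPM in chow and 6730, 8910, 9430 and 11100 TPM in ketogenic-alternating liver (1.00, SE 0.17, limma adjusted p = 0.00918). Gulo, the last enzyme of vitamin C synthesis in mice, rose from 220, 173, 134 and 161 TPM to 373, 337, 337 and 317 TPM (1.00, SE 0.15, limma adjusted p = 0.00426). Oat is pericentral, and Pck1 and Sds are periportal. Glul, glutamine synthetase, the defining enzyme of the innermost pericentral layer, changed by 0.81 (SE 0.18, limma adjusted p = 0.0232), and Asl, argininosuccinate lyase of the periportal urea cycle, by -0.65 (SE 0.14, limma adjusted p = 0.0194).

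Zonal counts depended on the libraries. The pericentral count of 7 was 4 without chow replicate 4 or ketogenic-alternating replicate 3, 3 without ketogenic-alternating replicate 2 and 1 in each refit for the 20 highest genes. The periportal count of 5 was 2 without chow replicate 2 or 4 or ketogenic-alternating replicate 3, 3 without ketogenic-alternating replicate 2 or 4, 2 without chow replicates 2 and 3 together and 4 with the covariate, and it was 8 after median-ratio scaling. Glul was lost without chow replicate 2 or 4 or ketogenic-alternating replicate 2 or 3, and Asl without chow replicate 2 or 4 or ketogenic-alternating replicate 3 (limma adjusted p up to 0.0826). Neither these nor Cyp2e1, Oat or Pck1 passed without chow replicates 2 and 3 or with the covariate (limma adjusted p from 0.0545 to 0.213), and Cyp2e1 had an adjusted p of 0.0585 after median-ratio scaling. Gulo and Sds passed in all of these fits.

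Detoxification genes contained many of the largest falls. Cyp2b10, the classical target of CAR, lies at chr7:25897620-25926624 and had 22, 8.86, 10.1 and 8.39 TPM in chow. In ketogenic-alternating liver it had 0.0396, 0.224, 0.635 and 0.308 TPM, all below 1 TPM (log2 fold change on the log2(TPM + 1) scale -3.27, SE 0.28, limma adjusted p = 0.000184). Cyp3a11, the main PXR-responsive P450 of mouse liver, fell from 3470, 5280, 3910 and 3800 TPM to 1150, 778, 638 and 1030 TPM (-2.21, SE 0.20, limma adjusted p = 0.000274). Cyp3a25 and Cyp3a59 fell by 1.08 (SE 0.13, limma adjusted p = 0.00136) and by 1.42 (SE 0.18, limma adjusted p = 0.00151). Of 27 xenobiotic P450 enzymes 5 were lower, at least 5 in each of the refits here, and 4 were higher, a count that was 2 without ketogenic-alternating replicate 2, 1 without chow replicates 2 and 3 or after median-ratio scaling, and 0 with the covariate. Many copies within the Cyp2b, Cyp2c and Cyp3a families are similar in sequence, so the division of reads among them is uncertain.

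Glutathione transferases, which attach glutathione to reactive compounds, passed only as lower, 8 of 21, with a list median of -0.52. Gsta2 fell from 133, 296, 205 and 117 TPM to 37.4, 40.3, 22.2 and 32.4 TPM (-2.41, SE 0.28, limma adjusted p = 0.00122). Gstp1 fell from 4410, 4900, 5480 and 5690 TPM to 1710, 2500, 1320 and 1600 TPM (-1.55, SE 0.19, limma adjusted p = 0.00136), and Gstp2, its close copy, from 595 to 980 TPM in chow to 179 to 264 TPM (-1.79, SE 0.18, limma adjusted p = 0.000488). Gsta4, which acts on lipid aldehydes, fell by 1.56 (SE 0.21, limma adjusted p = 0.00181). The groups did not overlap for Gsta2, Gstp1, Gstp2 or Gsta4, and the split within each of these families is uncertain. Gsta1 had 37, 83.4, 42.4 and 20.5 TPM in chow and 20.2, 3.49, 0.872 and 1.52 TPM (-3.17, SE 0.65, limma adjusted p = 0.0182). It was lost without chow replicate 2 or 3 or ketogenic-alternating replicate 2 or 3, and in the refits without chow replicates 2 and 3 (limma adjusted p = 0.182) and with the covariate (limma adjusted p = 0.133). The count of 8 was 5 without any 1 of these 4 libraries and 5 in both refits.

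Ces2a, a carboxylesterase, had 406, 473, 382 and 365 TPM in chow and 76.4, 127, 115 and 113 TPM in ketogenic-alternating liver (-1.92, SE 0.17, limma adjusted p = 0.000184). Of 32 conjugating enzymes and carboxylesterases 2 were higher and 3 lower, beside 3.67% and 1.33% of all genes. Sult2a8, a hepatic sulfotransferase, was one of those higher (1.02, SE 0.16, limma adjusted p = 0.00461, and 0.0661 with the covariate). The count higher was 4 without chow replicate 1, 1 without ketogenic-alternating replicate 2 or 3 and 0 with the covariate, and the count lower was 1 without ketogenic-alternating replicate 2 or 3 and in each refit. In vitamin A metabolism, Cyp26a1, which breaks down retinoic acid, fell from 7.02, 10.7, 5.08 and 5.66 TPM to 1.88, 1.47, 0.76 and 0.627 TPM (-1.89, SE 0.25, limma adjusted p = 0.00185), and Dhrs3, which reduces retinal, fell by 0.65 (SE 0.12, limma adjusted p = 0.00988). Aldh3a2, the fatty aldehyde dehydrogenase, rose from 249, 164, 126 and 191 TPM to 420, 495, 419 and 482 TPM (1.35, SE 0.19, limma adjusted p = 0.00246). The list of aldehyde dehydrogenases and retinoid metabolism had 5 higher and 2 lower of 30; the count of 5 was 8 without chow replicate 1, 3 without chow replicate 2, 3 or 4 or ketogenic-alternating replicate 1, and 1 without ketogenic-alternating replicate 2 or 3. It was 2 without chow replicates 2 and 3 and 1 with the covariate.

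Circadian genes changed widely. The clock consists of the activators CLOCK, NPAS2 and BMAL1 (Arntl), the repressors PER and CRY, and output factors such as DBP and TEF, and its transcripts cycle over the day. Dbp, at chr7:45705088-45710203, had the largest rise of all genes named here, from 1.62, 1.57, 4.99 and 2.54 TPM in chow to 63.6, 50.3, 78.8 and 167 TPM (log2 fold change 4.56, SE 0.36, limma adjusted p = 0.000135). Per3 rose from 0.29, 0.354, 0.533 and 0.378 TPM to 5.15, 3.02, 5.14 and 6.42 TPM (2.06, SE 0.20, limma adjusted p = 0.000462) and Tef from 23.3, 17.5, 23.6 and 29.7 TPM to 66.6, 57.7, 87.5 and 102 TPM (1.68, SE 0.20, limma adjusted p = 0.00136). Cry1 went the other way, from 15.3, 8.94, 6.26 and 6.97 TPM to 1.95, 1.26, 1.77 and 1.37 TPM (-1.94, SE 0.24, limma adjusted p = 0.00151). None of these 4 genes overlapped between the groups.

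Other members are given after their values were seen, to describe the loop as a whole. Npas2 and Nfil3 were the other members lower, at -1.56 (limma adjusted p = 0.00398) and -1.31 (limma adjusted p = 0.0115), and Arntl was at -1.39 without passing (limma adjusted p = 0.0761). Clock and Per1 did not pass, at -0.08 (limma adjusted p = 0.873) and 0.49 (limma adjusted p = 0.421). Nr1d1 and Nr1d2, which encode the REV-ERB repressors, were higher by 1.74 (limma adjusted p = 0.0263) and 1.48 (limma adjusted p = 0.00968). The median of the 23 members was 1.05, and 0.89 after median-ratio scaling. The count of 11 higher was 7 without ketogenic-alternating replicate 1 or 4, 6 without ketogenic-alternating replicate 3, 7 without chow replicates 2 and 3 and 5 with the covariate; the 3 lower were 3 to 4 in these fits. Dbp, Per3, Tef and Cry1 passed in all of them, with Dbp at 5.25 under the covariate. The hour of collection of each liver is not given in the sources used here, so a shift in time of day between the groups cannot be told apart from the diet.

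Among secreted and stress-linked products of the liver, Trib3, a pseudokinase induced by the integrated stress response, rose from 5.46, 6.97, 6.88 and 8.08 TPM to 19.7, 15.4, 13.2 and 17.6 TPM (1.15, SE 0.17, limma adjusted p = 0.00369). Inhbe, which encodes the hepatokine activin E, rose from 16.2, 10.9, 6.32 and 13 TPM to 45.8, 30.5, 23 and 43.8 TPM (1.56, SE 0.28, limma adjusted p = 0.00969). Lect2, another hepatokine, rose from 83 to 117 TPM in chow to 178 to 206 TPM (0.96, SE 0.14, limma adjusted p = 0.00369). Fgf21, the fasting and protein-restriction hormone, had 5.83, 5.64, 5.35 and 8.7 TPM in chow and 68.1, 37.8, 9.65 and 34.9 TPM in ketogenic-alternating liver (2.13, SE 0.44, limma adjusted p = 0.0194). Replicate 3 was near the highest chow library, and Fgf21 did not pass without chow replicate 2 or 3 or ketogenic-alternating replicate 2 (limma adjusted p up to 0.0687). Fgf21 and Inhbe did not pass without chow replicates 2 and 3 or with the covariate (limma adjusted p from 0.0718 to 0.19). Of 27 genes of insulin signalling and hepatokines 5 were higher and 1 lower; the count higher was 3 without chow replicate 2 or 3 or ketogenic-alternating replicate 2, and 2 in both refits. The count lower was 0 without chow replicate 2 or 4 or ketogenic-alternating replicate 2, 3 or 4 and in both refits, and 2 without chow replicate 1.

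Male-biased liver genes, which follow the pulses of growth hormone, had 4 higher and 2 lower of 30. Selenbp2, a selenium-binding protein, rose from 65.8, 19.2, 13.1 and 18.1 TPM to 286, 157, 233 and 71.9 TPM (2.77, SE 0.49, limma adjusted p = 0.00965), where the lowest ketogenic-alternating library was just above the highest chow library. It did not pass without chow replicates 2 and 3 (limma adjusted p = 0.116) or with the covariate (limma adjusted p = 0.147). Mup1, a major urinary protein, had 3230, 1290, 2290 and 1680 TPM in chow and 3570, 5630, 8120 and 5580 TPM (1.46, SE 0.30, limma adjusted p = 0.0174), a value that shares reads with other Mup copies and was lost without chow replicate 4 or ketogenic-alternating replicate 2 or 3, and in both refits (limma adjusted p of 0.131 and 0.152). The count of 4 higher ranged from 1 to 8 in fits without 1 library, 8 without chow replicate 1, 2 without chow replicate 2 or 4 and 1 without ketogenic-alternating replicate 2 or 3, and was 0 in both refits. The count of 2 lower was 1 without chow replicate 2 or 4 or ketogenic-alternating replicate 2, 3 or 4, and in both refits; Elovl3, described above, was one of them. Hdc, histidine decarboxylase, which makes histamine, was among the 12 largest falls, from 21.6, 9.46, 23.4 and 17.8 TPM to 4.21, 2.19, 3.24 and 5.79 TPM (-1.96, SE 0.29, limma adjusted p = 0.00371), with an adjusted p of 0.058 under the covariate.

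The gene for hepcidin, the hormone that limits iron release, is Hamp, whose level is not given here. The related gene Hamp2 had the next largest fall after Scd1. It lies at chr7:30922372-30924681 and had 87.7, 351, 333 and 66 TPM in chow and 7.39, 2.54, 5.03 and 7.91 TPM in ketogenic-alternating liver (-4.69, SE 0.52, limma adjusted p = 0.00101). Chow replicates 2 and 3, the libraries with the largest share in 20 genes, had the highest Hamp2, and without them Hamp2 still passed at a smaller log2 fold change of -3.61 (limma adjusted p = 0.00452); with the covariate it was at -3.52 (limma adjusted p = 0.0233). Slc30a10, a manganese exporter, fell from 23.3, 16, 12.8 and 15.4 TPM to 5.91, 7.68, 8.81 and 5.87 TPM (-1.13, SE 0.20, limma adjusted p = 0.00965). Of 21 genes of iron, zinc and metallothioneins 1 was higher and 3 lower, beside 3.67% and 1.33% of all genes. The 1 higher, Hfe2, which encodes hemojuvelin (0.50, limma adjusted p = 0.0482), was lost without any 1 library other than chow replicate 1, after median-ratio scaling, without chow replicates 2 and 3 (limma adjusted p = 0.149) and with the covariate (0.178). The count lower was 2 in both refits.

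Interferon-stimulated genes passed only as higher, 11 of 31, with a median of 0.83 (0.68 after median-ratio scaling, where 11 passed too). Usp18, which removes ISG15 from proteins, had 4.85, 8.06, 4.84 and 3.83 TPM in chow and 17.9, 20, 14.2 and 16.3 TPM in ketogenic-alternating liver (1.53, SE 0.20, limma adjusted p = 0.00181). Oas1a, an oligoadenylate synthetase that senses double-stranded RNA, had 1.53, 2.08, 1.43 and 1.94 TPM in chow and 8.32, 5.42, 5.84 and 4.72 TPM (1.35, SE 0.19, limma adjusted p = 0.00246). Psmb9, a subunit of the immunoproteasome, rose by 1.12 (SE 0.16, limma adjusted p = 0.00273) and Irf7, the interferon-induced transcription factor, by 0.96 (SE 0.14, limma adjusted p = 0.00278). H2-T23, a non-classical class I molecule, rose by 0.73 (SE 0.13, limma adjusted p = 0.0103). The interferon count was 7 without chow replicate 4, 6 without ketogenic-alternating replicate 2 or 3, 7 without chow replicates 2 and 3 and 4 with the covariate. Usp18, Oas1a, Psmb9 and Irf7 passed in all of these fits, and H2-T23 did not pass in either refit for the 20 highest genes (limma adjusted p of 0.0618 and 0.0817).

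Markers of immune cells were measured beside these genes. Summed Kupffer cell markers were 249 to 553 TPM in chow and 260 to 787 TPM in ketogenic-alternating liver (exact permutation p = 0.114), and of the 12 markers none passed in limma while 6 had an unadjusted p below 0.05, all higher. For markers of neutrophils, of recruited macrophages and of the lymphocyte lists (B and plasma cells, T and NK cells) the exact permutation p ranged from 0.229 to 1, all two-sided. Of the 6 recruited macrophage markers tested, Cd9 passed as lower (-1.22, limma adjusted p = 0.0428), and was lost without any 1 library other than chow replicate 1 or ketogenic-alternating replicate 1 and in both refits. Stellate cell markers were 287 to 339 TPM in chow and 328 to 535 TPM (exact permutation p = 0.0571), and those of sinusoidal endothelium 133 to 227 TPM and 173 to 268 TPM (exact permutation p = 0.143). Their part in the interferon result was not tested.

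Acute phase proteins had 3 higher and 2 lower of 26, beside 3.67% and 1.33% of all genes. Serpina3n, a protease inhibitor of the acute phase, rose from 177, 185, 134 and 198 TPM to 512, 395, 498 and 368 TPM (1.35, SE 0.16, limma adjusted p = 0.00136). Lrg1, a leucine-rich glycoprotein, rose from 270 to 408 TPM in chow to 531 to 764 TPM (0.88, SE 0.16, limma adjusted p = 0.0113), and did not pass in either refit for the 20 highest genes (limma adjusted p of 0.0687 and 0.113). The 2 lower, Hamp2 and Orm1 (-0.90, limma adjusted p = 0.0424), were 1 without any 1 library other than chow replicates 1 and 4 or ketogenic-alternating replicate 1. The counts higher and lower were 1 and 1 in both refits. F11, coagulation factor XI, rose from 18.6, 11.1, 10.8 and 16.4 TPM to 40.7, 41.5, 57.8 and 35.1 TPM (1.57, SE 0.21, limma adjusted p = 0.00181). F11 and Cfd were 2 of 3 members higher among 41 complement and coagulation genes, and the third was C4bp (0.69, limma adjusted p = 0.041). The count higher was 12 without chow replicate 1, 6 without ketogenic-alternating replicate 4 and 2 in both refits. The 1 lower, Mbl2, a mannose-binding lectin (-0.60, limma adjusted p = 0.0332), was lost without chow replicate 2 or 4 or ketogenic-alternating replicate 2, 3 or 4 and in both refits. C4bp was lost without any 1 library other than chow replicate 1 or ketogenic-alternating replicate 4 and in both refits; it and Mbl2 were picked after their values were seen.

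Further genes stood apart from their lists. Aqp4, a water channel best known from brain, rose from 0.951, 1.15, 0.806 and 1.23 TPM to 6.8, 6.75, 9.11 and 7.42 TPM (2.06, SE 0.16, limma adjusted p = 0.000135). Krt23, a type I keratin of epithelia, rose from 3.36, 2.43, 2.45 and 3.03 TPM to 20.3, 12.7, 8.77 and 18.3 TPM (2.01, SE 0.24, limma adjusted p = 0.00132). The groups were far apart for both, and both passed in all 8 fits without 1 library and in both refits.

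**Figure D4:**
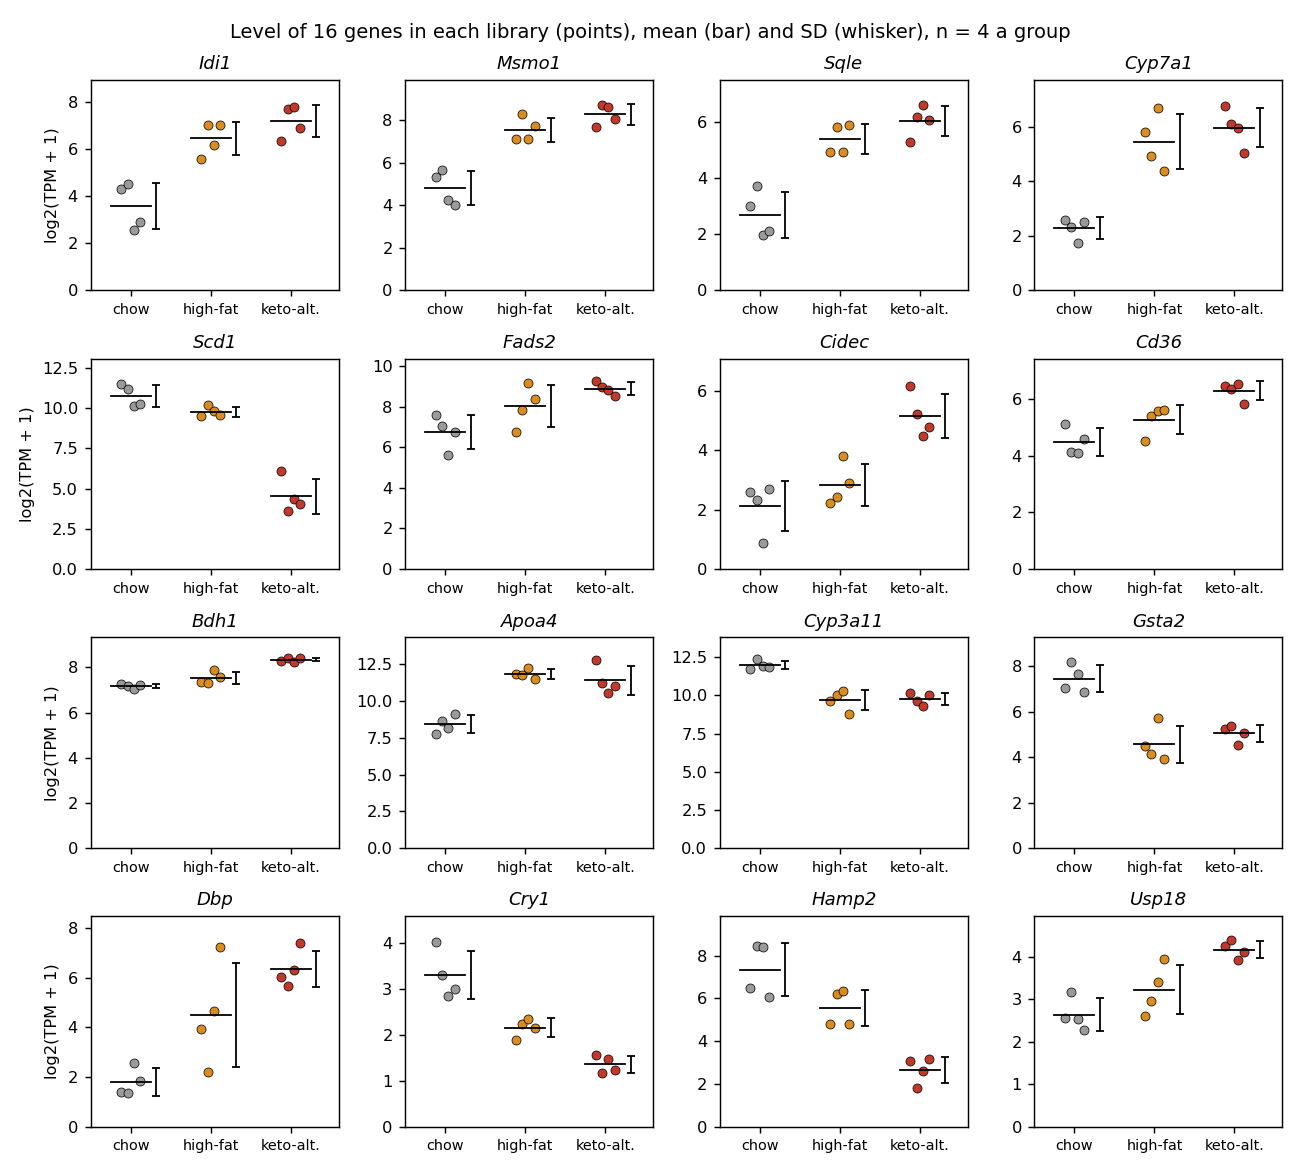
Each panel shows the level of 1 gene as log2(TPM + 1) in every library of the chow, high-fat and ketogenic-alternating groups, with a bar at the mean and a whisker of 1 SD to its right (n = 4 a group). Chow and ketogenic-alternating points do not overlap in any of the 16 panels, while high-fat points lie between them, beside one of them, or beyond the ketogenic-alternating points. All 16 genes were picked from those called on these same values, so the separation adds no support. Over all genes tested, 13.3% do not overlap.

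The ketogenic-alternating libraries were then set against those of continuous high-fat feeding, to see at which of these genes the levels of these diets differed. Of 11108 genes tested, 4 passed (0.0360%), all of them called: Cfd was higher (0.00900% of genes called higher) and Scd1, Hamp2 and Cyp2c70 were lower (0.0270%). At an unadjusted p below 0.05 there were 1116 genes (10%). The median log2 difference of all genes was 0.21 in this comparison. After median-ratio scaling it was 0.006, and 690 genes had an unadjusted p below 0.05. Scd1 had 716, 1150, 907 and 771 TPM in high-fat liver, a difference of -5.24 on the log2 scale in the ketogenic-alternating group (95% interval -6.16 to -4.32, limma adjusted p = 0.000505). Cyp2c70 had 180, 297, 228 and 249 TPM in high-fat liver, a difference of -1.90 (95% interval -2.33 to -1.47, limma adjusted p = 0.00343), and its high-fat libraries overlapped those of chow.

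Hamp2 had 27.1, 71.9, 80.6 and 27.3 TPM in high-fat liver, a difference of -2.88 (95% interval -3.75 to -2.02, limma adjusted p = 0.0322). Cfd had 1.88, 0.723, 0.848 and 3.34 TPM, a difference of 3.21 (95% interval 2.39 to 4.03, limma adjusted p = 0.0088). Scd1 and Cyp2c70 passed in all 8 fits without 1 library, whereas Cfd and Hamp2 did not pass without high-fat replicate 1 (limma adjusted p = 0.0613 for both) or without high-fat replicate 2 (0.0756 and 0.191). Hamp2 was also lost without ketogenic-alternating replicate 2 (0.0939) or 3 (0.0998), and without high-fat replicate 3 the number of genes called was 17. Without libraries with over 33% of TPM in their 20 highest genes, Cfd and Hamp2 did not pass (limma adjusted p = 0.293 for both). With the share of the 20 highest genes as a covariate, Scd1 and Ugt1a10 were called (limma adjusted p = 0.0398 and 0.0380). Ugt1a10 was picked out after its value was seen. Cyp2c70, Cfd and Hamp2 did not pass with that covariate (limma adjusted p = 0.17, 0.326 and 0.698). Cyp2c70 also did not pass without a filter on low values (limma adjusted p = 0.0591).

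Other genes did not pass this comparison, and their intervals show which differences the data allow. These intervals are not corrected for the median difference of all genes, 0.21. Those given for Msmo1, Dbp and Pck1 reach below that median, so they do not show a difference beyond it. For Idi1, high-fat libraries had 47, 131, 72.2 and 132 TPM and the difference was 0.73 (95% interval -0.09 to 1.55). Msmo1 differed by 0.72 (95% interval 0.08 to 1.36, limma adjusted p = 0.486), Cyp7a1 by 0.52 (-0.49 to 1.52) and Apoa4 by -0.44 (-1.29 to 0.41). Cyp3a11 differed by 0.08 (95% interval -0.58 to 0.74) and Gsta2 by 0.49 (-0.27 to 1.24). For these 4 of the lipid and detoxification genes, Cyp7a1, Apoa4, Cyp3a11 and Gsta2, the interval holds 0 and differences in both directions, so a shared level is not shown.

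Intervals that exclude 0 before any adjustment were found for Cidec at 2.32 (95% interval 1.47 to 3.17, limma adjusted p = 0.124), Krt23 at 1.76 (1.02 to 2.50, limma adjusted p = 0.198), Aldh3a2 at 1.25 (0.81 to 1.69, limma adjusted p = 0.116) and Trib3 at 1.24 (0.62 to 1.87, limma adjusted p = 0.329). The same holds for Bdh1 at 0.81 (95% interval 0.47 to 1.14, limma adjusted p = 0.198), Cd36 at 1.02 (0.48 to 1.57, limma adjusted p = 0.331) and Cry1 at -0.80 (-1.19 to -0.40, limma adjusted p = 0.329). Dbp had 14.2, 3.61, 24.5 and 149 TPM in high-fat liver and differed by 1.84 (95% interval 0.08 to 3.61, limma adjusted p = 0.486). High-fat replicate 4 lay within the ketogenic-alternating range for Dbp, and the other 3 high-fat libraries lay below it. Pck1 had 322, 570, 1590 and 876 TPM in high-fat liver, mostly below the ketogenic-alternating libraries, with a difference of 0.90 (95% interval 0.07 to 1.72, limma adjusted p = 0.486).

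**Figure D5:**
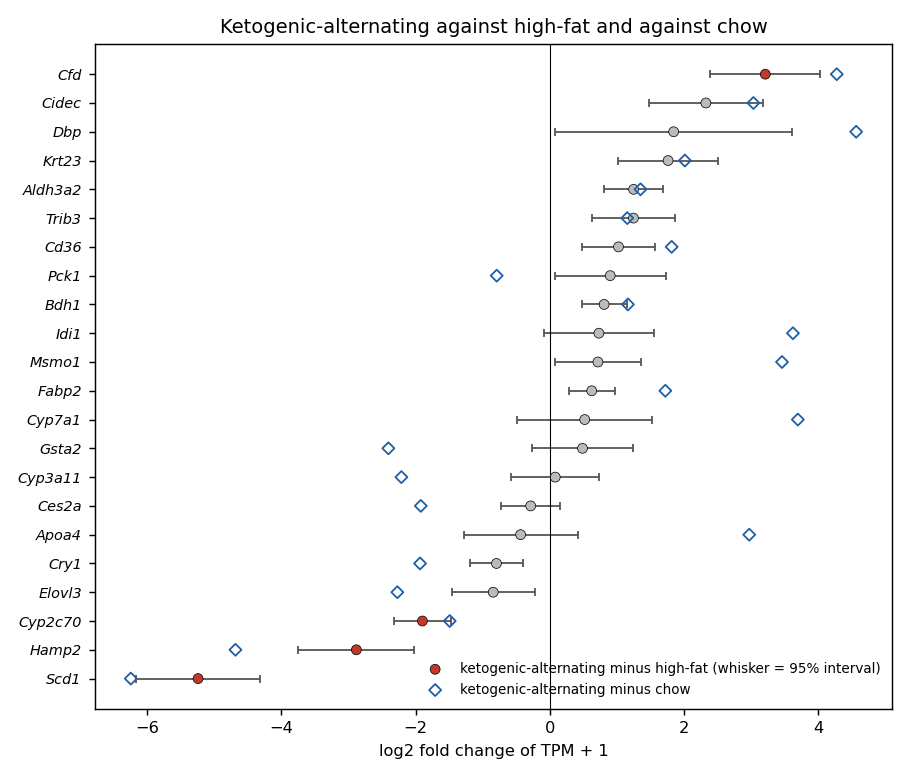
Filled points give the log2 difference in TPM + 1 between ketogenic-alternating and high-fat libraries for 22 genes, with whiskers for the 95% interval (not adjusted for the number of genes), and red for those that passed; open diamonds give the difference from chow. Scd1, Hamp2, Cyp2c70 and Cfd are red, and genes such as Cyp3a11 and Apoa4 sit near 0 against high-fat (0.08 and -0.44) while their diamonds lie at -2.21 and 2.97.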

How the data were processed

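The authors deposited gene and transcript tables whose columns sum to 1000000, so the deposited values are TPM, while the design text speaks of FPKM; the step between the units is not given in the sources used here. Per the submitters' processing notes, HISAT2, RSEM 1.1.17 and edgeR 3.14.0 were used on the mm10 genome. TPM keeps no sequencing depth, so depth and intervals that need counts are unknown, and the number of libraries limits the precision. The planned test for log2 values was used with this unit. The transcript table served only to check that its values sum to those of the genes. Symbols and positions came by identifier from GENCODE vM21, which held 22582 of 22612 genes; for the rest the table's own symbol was kept.

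Values were transformed as log2(TPM + 1), so folds of low genes are understated. A gene entered the test where 4 or more of the 8 libraries reached 1 TPM. The test was that of limma 3.58.1 (R 4.3.3, intensity trend, no covariate), and p-values were adjusted by Benjamini-Hochberg over all genes tested. Marker sums were compared with exact two-sided permutation tests. The scripts were tested on simulated data. Alternatives covered the pseudocount, filters, weights, scalings (median ratio, trimmed mean of M values, quantile), a covariate, a replicate block and each library left out.

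The members, the 40 gene lists and 13 marker lists, and the rule for naming genes were chosen with earlier results of these data known. The rule named the 12 largest rises and 12 largest falls among called genes with a mean of at least 1 TPM (predicted genes, pseudogenes and antigen receptor segments left out), up to 4 passed members of smallest p from each list or the most abundant member where none passed, and Acaca, Acacb, Mlycd, Sirt5, Fasn, Scd1, Srebf1 and Cpt1a; it gave 123 genes, of which 115 passed. Of 1031 listed genes 1027 were found by symbol and 2 by synonym. Copies of the Gsta, Gstm, Gstp, Cyp2b, Cyp2c, Cyp3a, Mup, Saa and Oas1 families share reads by estimation. Promoter letters came from RefSeq for GRCm38.p6. Same-numbered chow and ketogenic-alternating libraries did not deviate together, so numbers were not taken as pairs. Chow-alternating libraries entered only the fit over all 16 libraries and were otherwise not used here. Values of some single genes on the lists are not reported here.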

Additional observations from a re-analysis of the deposited data

Results flagged for a closer look

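In 6 of 246 groups of 4 libraries, over the named genes and both diets, 1 library lay far from the other 3 by Dixon's gap ratio at its 95% critical value, computed on log2(TPM + 1), so it cannot be recomputed from the TPM below; chance flags about 1 in 20 such groups. Ucp2, the mitochondrial carrier, was at 14.2 TPM in ketogenic-alternating replicate 4 against 21.2 to 22.7 TPM in the others (ratio 0.856). Hadh, of fatty acid oxidation, was at 190 TPM in chow replicate 3 against 275 to 284 TPM (ratio 0.922). Fgf21, the fasting hormone, was at 8.7 TPM in chow replicate 4 against 5.35 to 5.83 TPM (ratio 0.831). Rhbg, the ammonium transporter of pericentral hepatocytes, was at 1.79 TPM in chow replicate 3 against 2.68 to 2.87 TPM (ratio 0.841). Acaca, acetyl-CoA carboxylase 1, was at 14 TPM in chow replicate 1 against 5.89 to 6.45 TPM (ratio 0.899). Fasn, fatty acid synthase, was at 18.7 TPM in ketogenic-alternating replicate 1 against 45.2 to 50.3 TPM (ratio 0.89). Acaca and Fasn are the genes of this set that did not pass between chow and the ketogenic-alternating diet.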

How the results depend on the processing

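Between chow and the ketogenic-alternating diet, 257 genes were called and 555 passed. Array weights gave 406 called and 2595 passed, the share of the 20 highest genes as a covariate 132 and 205, and leaving out libraries with over 33% in 20 genes 148 and 203. Without a filter 351 passed and with quantile normalization 862. Leaving out 1 library gave 165 to 479 called and 210 to 1630 passed, and 157 of the 257 called and 185 of the 555 passed genes passed in all 8 such fits. Between high-fat and the ketogenic-alternating diet, 4 genes were called and passed; array weights gave 8 of both, all 16 libraries in 1 fit 12 called and 16 passed, no filter 1 of both, the covariate 2 of both, and 1 library left out 2 to 17 called and 2 to 18 passed. The cause of these shifts was not tested, except that fewer libraries or more genes entered some fits.

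Of the called genes 75.5% were higher, and 58.3% after median-ratio scaling, 59.7% with TMM, 58.4% with quantile normalization, 65.2% without the 20 most abundant genes, 66.9% without libraries over 33% and 52.3% with the covariate.

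The replicate numbers did not pair the samples (correlations of deviations -0.034, 0, -0.236 and 0.137); with the replicate block 418 genes passed and 242 were called against chow, and 5 of both against high-fat. Mlycd and Atp5b, which did not pass, turned direction. Mlycd, at 0.079, was at -0.003 with array weights, -0.093 with median-ratio scaling, -0.083 with TMM, -0.037 without the 20 most abundant genes, -0.044 with quantile normalization, -0.128 with the covariate, -0.054 without libraries over 33% and -0.011 without chow replicate 3. Atp5b, at 0.485, was at -0.034 with the covariate, and Ccnd3, at -0.073 and not passed, was at 0 to 3 decimals without ketogenic-alternating replicate 3. The range without 1 library was -0.151 to 0 for Ccnd3 and -0.011 to 0.125 for Mlycd. The other named genes kept their direction in each alternative that gave them a value. Of the 123 named genes 115 passed; 71 passed in all 8 fits without 1 library, 66 without libraries over 33%, 54 with the covariate, 95 with the block and 103 after median-ratio scaling. Pseudocounts of 0.1 and 0.5, a fit without the trend, and filters on the mean or at 5 TPM left the counts of called genes within 1.5 times. TPM carries no depth, so how far counting noise limits genes near 1 TPM is unknown.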

Other observations

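Gene families that the report's lists hold only in part were chosen after their values were seen, and are given as values. Of 21 major urinary protein genes (Mup) tested, 11 were higher and 1 lower, Mup20, with log2 fold changes from -0.85 to 2.41 and a median of 1.2 against 0.15 for all genes; these copies are nearly identical and share reads, so they are not 21 separate measurements. Of 10 acyl-CoA dehydrogenases (Acad) 5 were higher, Acad10, Acad12, Acadl, Acadm and Acads, at a median of 0.58. All 3 tested acyl-CoA synthetases of the medium-chain family (Acsm) were higher, Acsm1, Acsm3 and Acsm5, from 0.62 to 0.71. Of the 257 called genes, 108 were on one of the lists and 149 on none.

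Lists with few members past the test are given by their counts, with the range over the 8 fits without 1 library. Glycolysis and fructose metabolism had 2 of 26 higher (1 to 4), endoplasmic reticulum folding and integrated stress response 2 of 29 (1 to 2), nuclear receptors and lipid sensors 3 of 31 (2 to 7), immediate early and heat shock genes 3 of 26 (0 to 3) and coenzyme A and acyl-CoA thioesterases 2 of 21 (1 to 6). Antigen presentation had 2 of 14 higher (1 to 4), selenium genes 1 of 16 (1 to 3), collagen and fibrosis 1 of 23 (0 to 3) and aquaporins and glycerol handling 2 of 8 (1 to 6). In these 9 lists no member passed as lower in the full comparison. However, 2 nuclear receptors did without chow replicate 1 or ketogenic-alternating replicate 4, and 1 without chow replicate 4. A selenium gene did without chow replicate 1. From the immediate early and heat shock list, 1 member did without chow replicate 2, after median-ratio scaling and in both refits for the 20 highest genes. After median-ratio scaling 2 folding genes did as well. NRF2 and glutathione genes had 1 higher (0 to 3) and 3 lower (3 in each fit) of 18, and cytoskeleton and keratins 2 higher (1 to 3) and 1 lower (0 to 3) of 23. The upper ends for glycolysis, nuclear receptors, coenzyme A, antigen presentation, selenium, aquaporins and NRF2 came without chow replicate 1, and that for collagen without ketogenic-alternating replicate 4. In both refits for the 20 highest genes the counts higher of the coenzyme A, antigen, selenium, collagen and NRF2 lists were 0. Over all genes, 3.67% passed as higher and 1.33% as lower in limma's test.

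Summed markers of other cell types overlapped between the groups. They ran from 45.4 to 101 TPM in chow and 40.7 to 198 TPM in ketogenic-alternating liver for cholangiocytes, 10.5 to 18 and 14.6 to 23.9 TPM for exocrine pancreas, 603 to 896 and 522 to 932 TPM for red blood cells, and 0.585 to 1.86 and 0.809 to 3.63 TPM for skeletal muscle. The exact two-sided permutation p ran from 0.286 to 0.857. None of the tested members of these 4 lists passed in limma, and 1 cholangiocyte and 1 red blood cell marker had an unadjusted p below 0.05, both lower.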
